A study of Saccharomyces cerevisiae with 18 samples.

Results

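The hexose transporters of the HXT family were followed across 6 groups of Sigma1278b yeast, a Saccharomyces cerevisiae background that forms wrinkled colonies. The probe sets were those whose platform gene symbol was HXT1, HXT2, HXT3, HXT4, HXT5, HXT8, HXT10, HXT11 or HXT13. This gave 9 of the 5425 S. cerevisiae genes with a symbol on the array and 10 probe sets, because HXT13 was measured by 2. RNA was measured on 18 Affymetrix Yeast Genome 2.0 arrays, 3 per group. KV473 and KV63 carried the label of a FLO11 deletion mutant, and KV2668 and KV68 that of the wild type. Colonies on solid medium were sampled for all 4 strains, and liquid cultures for KV473 and KV2668. Colonies grew for 5 days at 30°C on YPS, a rich medium of yeast extract and peptone with sucrose. The labels of the liquid cultures repeat that colony protocol, and no other growth time or cell density for them was found in the sources used here. The state of the medium, the age of the culture and the sugar left in it therefore cannot be told apart. The labels number the replicates without saying whether they were separate colonies or cultures, so p-values measure the spread between these arrays, which may be technical.

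Hxt proteins are carriers of the plasma membrane that let glucose, fructose and mannose move down their concentration gradient. Sucrose is cut outside the cell by invertase, the product of SUC2, and the glucose and fructose released enter through these carriers. Hxt1 and Hxt3 have a low affinity for glucose and serve cells in ample sugar. Hxt2 and Hxt4 have a high or intermediate affinity and serve cells in scarce glucose. Hxt5 has an intermediate affinity and is known from slowly growing and starved cells. Hxt8, Hxt10, Hxt11 and Hxt13 contribute little to glucose uptake in laboratory strains. Hxt11, with its near copy Hxt9, has been tied to drug resistance, and Hxt13 has been described as a carrier of polyols. Transcription of the main HXT genes is held off by the repressor Rgt1 together with Mth1 and Std1. The glucose sensors Snf3 and Rgt2 lift that repression, and Mig1 with its relatives represses the genes of scarce sugar when glucose is plentiful.

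The targeted gene went against the labels. FLO11, which encodes the cell-surface adhesin behind wrinkled colonies, lay between 12.76 and 13.31 (log2 intensity) on all arrays of KV473 and KV63, labelled as its deletion mutants. On all arrays of KV68 and KV2668, labelled wild type, it lay between 4.65 and 5.43, just above the array background of 4.34 to 4.56. The background is the 95th percentile of the Schizosaccharomyces pombe probe sets on the same array, a species absent from these samples. Strain names and "labelled flo11" or "labelled wild type" are therefore used throughout. Every signed difference is labelled flo11 minus labelled wild type, or solid minus liquid, on the log2 scale. The study's wild-type estimates on solid medium lay nearer to KV473 than to KV2668 for most probe sets. Its signs for this strain pair therefore run the other way.

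The strains also differed in genes of mating type. All 4 genes tested as markers of alpha cells were higher and all 7 markers of a cells were lower in KV473 than in KV2668, on solid and in liquid medium. The mean of the a-cell markers minus that of the alpha-cell markers was negative on every array of KV473 and KV63, from -5.97 to -4.58, and positive on every array of KV2668, from 2.96 to 3.29. In KV68 it was -6.18 and -6.37 on replicates 1 and 2 and 0.36 on replicate 3. That array, the library labelled KV68 solid replicate 3, correlated at 0.909 and 0.918 with the other replicates of its group, whereas all other replicate pairs correlated between 0.993 and 0.999. Where leaving it out ended or made a call, turned a direction or moved a called value by over 1.5 times, the value without it is given beside the result. KV473 and KV2668 thus differed in FLO11 RNA and in mating-type genes together, and the part of either in the transporter values was not tested.

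HXT5 stood out between colonies and liquid cultures. Its log2 values in KV473 colonies were 12.40, 12.58 and 12.35, against 9.50, 9.51 and 9.50 in KV473 liquid cultures. KV2668 colonies had 12.69, 12.93 and 12.87, against 9.29, 9.45 and 9.25 in KV2668 liquid cultures. The colony values were far above the liquid values in both strains, with no overlap. HXT5 rose by 2.94 ± 0.08 (SE), or 7.68-fold, in KV473 colonies (limma, adjusted p = 8.31e-13, n = 3 against 3). In KV2668 colonies the rise was 3.50 ± 0.08, or 11.3-fold (limma, adjusted p = 1.61e-13). The remaining colonies lay in the same range, at 12.23, 12.24 and 12.24 in KV63 and 12.05, 12.03 and 12.80 in KV68. By group mean the order ran from KV2668 solid through KV473, KV68 and KV63 solid to KV473 liquid and KV2668 liquid, and only the steps from KV473 to KV68 and from KV68 to KV63 overlapped.

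**Figure D1:**
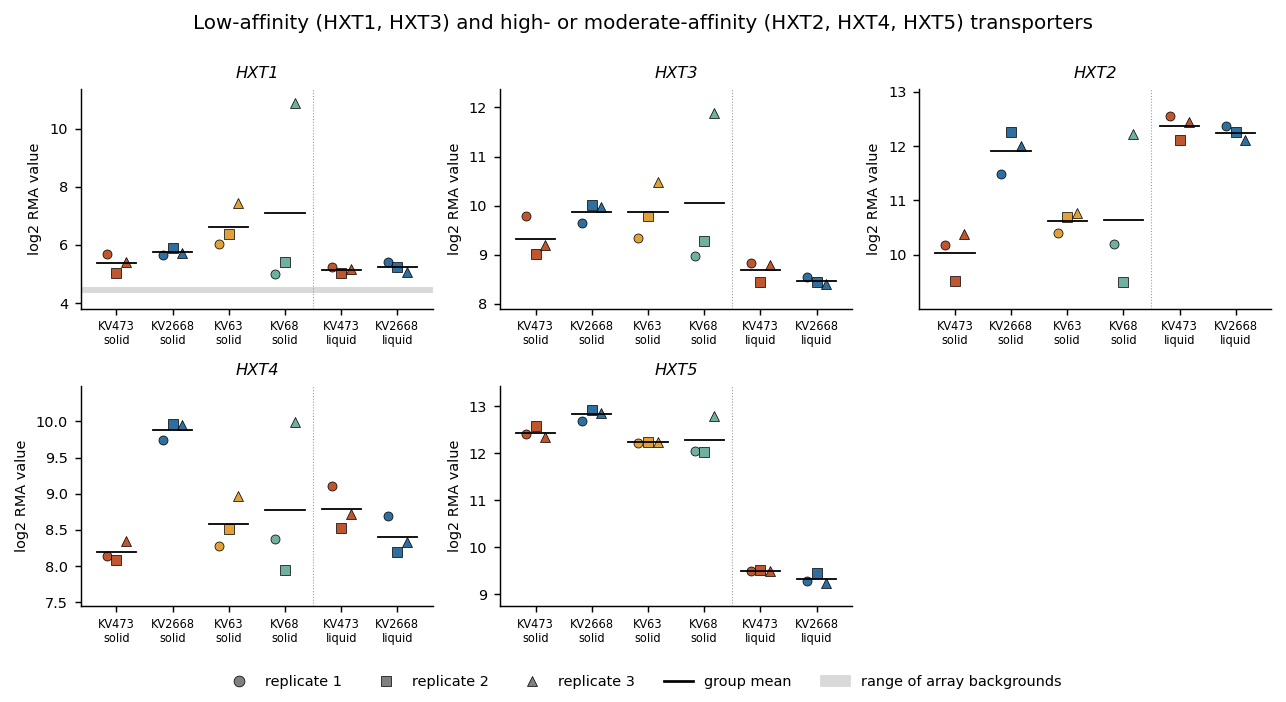
Log2 intensity (y axis) of HXT1, HXT3, HXT2, HXT4 and HXT5 on each array of the 6 groups (x axis). Points are arrays, shaped by replicate number, black lines are group means and the grey band is the range of array backgrounds; HXT5 lies at 12.03 or more in all colonies and at 9.51 or less in all liquid cultures, and replicate 3 of KV68 solid is the highest colony array for HXT1 and HXT3.

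HXT2, a carrier for scarce glucose, ran the other way in KV473. The KV473 colonies had 10.18, 9.53 and 10.39, against 12.56, 12.11 and 12.45 in the liquid cultures. The KV2668 colonies had 11.48, 12.26 and 12.01, against 12.37, 12.26 and 12.12 in the liquid cultures. KV473 colonies lay below every liquid culture, whereas KV2668 colonies overlapped theirs. HXT2 fell by 2.34 ± 0.21 in KV473 colonies, or 5.06-fold (limma, adjusted p = 2.08e-07). In KV2668 the difference was -0.33 ± 0.21 (limma, adjusted p = 0.164). The difference between these changes was itself called in the test of interaction, at -2.01 ± 0.30 (limma, adjusted p = 0.00011).

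HXT4, also a carrier for scarce glucose, differed between media by strain in both directions. KV473 colonies had 8.14, 8.08 and 8.35, against 9.11, 8.52 and 8.72 in liquid. KV2668 colonies had 9.74, 9.97 and 9.95, against 8.69, 8.19 and 8.33 in liquid. The KV473 colonies were lower than all KV473 liquid cultures, and the KV2668 colonies were higher than all KV2668 liquid cultures. The HXT4 difference was -0.60 ± 0.15 in KV473 (adjusted p = 0.00189), below the size of 1 required for a call, and 1.48 ± 0.15 in KV2668 (adjusted p = 4.48e-07, both limma). The interaction was -2.08 ± 0.21 (limma, adjusted p = 4.45e-06).

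Of the low-affinity carriers, HXT3 differed between the media in KV2668 and HXT1 was called in neither strain. HXT3 had 9.78, 9.01 and 9.19 in KV473 colonies, against 8.84, 8.45 and 8.78 in liquid, and 9.65, 10.01 and 9.98 in KV2668 colonies, against 8.54, 8.45 and 8.40 in liquid. All colonies were above the liquid cultures of the same strain. HXT3 rose by 1.42 ± 0.17 in KV2668 colonies (adjusted p = 2.61e-06), and its difference in KV473 was 0.64 ± 0.17 (adjusted p = 0.00279, limma), below the size of a call. HXT1, the carrier for plentiful glucose, had 5.68, 5.04 and 5.43 in KV473 colonies, against 5.25, 5.02 and 5.17 in liquid. It had 5.66, 5.90 and 5.71 in KV2668 colonies, against 5.40, 5.26 and 5.08 in liquid. All KV2668 colonies lay above the KV2668 liquid cultures, whereas KV473 colonies overlapped theirs. The differences were 0.24 ± 0.13 in KV473 and 0.51 ± 0.13 in KV2668 (limma, adjusted p = 0.12 and 0.00333), both under the size of a call.

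Among the little-used carriers, HXT13 and HXT10 could hardly be seen outside colonies. HXT13 has a probe set of the plain _at type and another of the _x_at type, whose probes may read other genes as well. By the plain probe set HXT13 had 6.11, 6.35 and 5.84 in KV473 colonies, against 3.79, 3.79 and 3.88 in liquid, where no array was above background. In KV473 the change was therefore at least 2.95-fold by the plain probe set and at least 2.40-fold by the _x_at probe set. With dim values raised to the background, the limma adjusted p was 3.65e-09 and 5.16e-05. KV2668 colonies had 4.70, 4.59 and 4.71 by the plain probe set, against 4.24, 3.94 and 3.93 in liquid, again below background, and the change was at least 1.14-fold and at least 1.13-fold by the 2 probe sets. The second of these was called on the measured values (1.03 ± 0.21, adjusted p = 0.000371, limma), but not when dim values were raised to the background (0.18, adjusted p = 0.43) or without KV2668 solid replicate 3 (0.88). The lower limits are the mean of the bright group against the mean background of the dim arrays.

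HXT10 showed the same contrast. Colonies of KV473 had 5.80, 6.04 and 5.66, against 4.41, 3.75 and 4.10 in liquid, none above background. This gave a rise of at least 2.45-fold (limma with dim values raised to the background, adjusted p = 9.94e-08). Colonies of KV2668 had 5.53, 5.56 and 5.47, against 4.92, 4.14 and 4.50 in liquid, 2 of the 3 above background. That rise was 1.01 ± 0.18 (limma, adjusted p = 0.000141), at the edge of the size threshold, and was no longer called at 0.90 after dim values were raised to the background, or without KV2668 solid replicate 2 or KV2668 liquid replicate 2 or 3 (0.815 to 0.997).

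HXT8 followed the medium in KV2668 above all. Its colonies had 7.00, 7.01 and 7.42 in that strain, against 5.35, 5.65 and 5.61 in liquid, a rise of 1.61 ± 0.11 (limma, adjusted p = 7.73e-09). KV473 colonies had 5.65, 5.72 and 5.70, against 5.23, 5.12 and 5.20 in liquid. The difference of 0.51 ± 0.11 (limma, adjusted p = 0.000517) was under the size of a call. The interaction for HXT8 was -1.10 ± 0.15 (limma, adjusted p = 4.73e-05), and -0.96, not called, without KV2668 solid replicate 3. HXT11 was higher in colonies by 0.40 ± 0.11 in KV473 and 0.79 ± 0.11 in KV2668, both under the size of a call (limma, adjusted p = 0.00462 and 1.88e-05). Its KV2668 colonies, at 7.62 or more, lay above the KV2668 liquid cultures, at 7.02 or less, whereas KV473 colonies overlapped theirs.

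**Figure D2:**
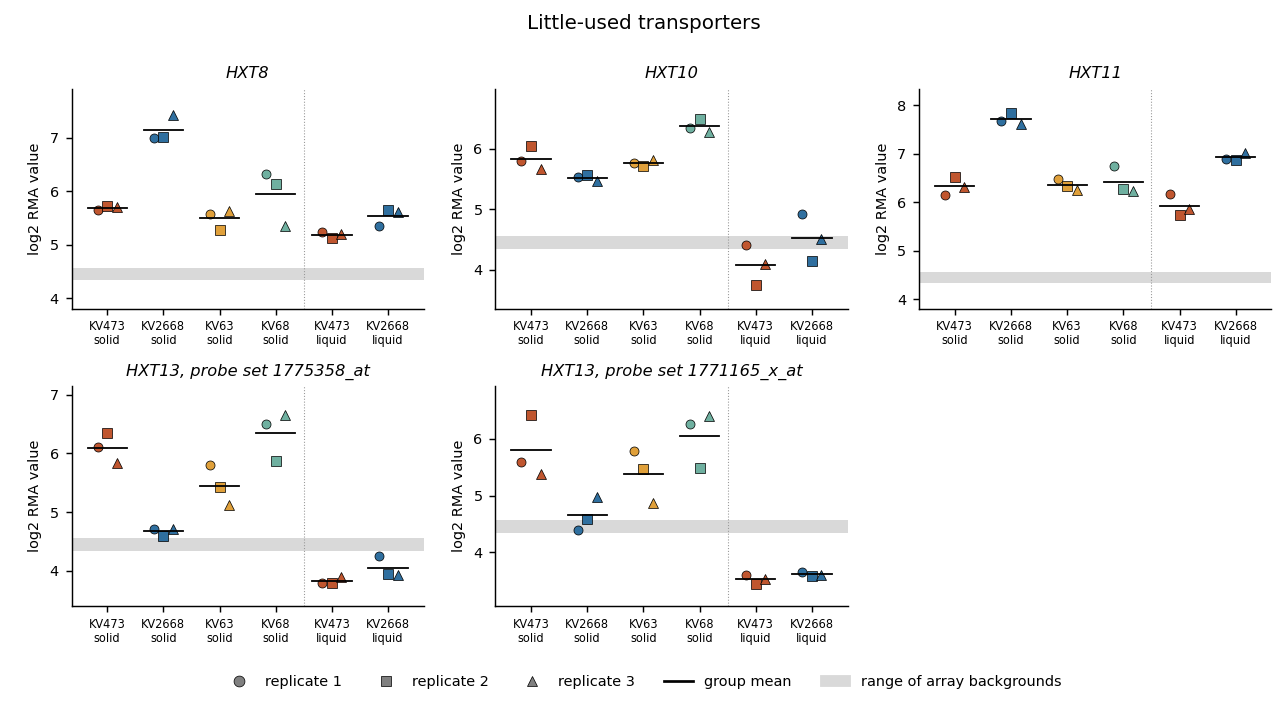
Log2 intensity (y axis) of HXT8, HXT10, HXT11 and both HXT13 probe sets on each array of the 6 groups (x axis). Points are arrays, shaped by replicate number, black lines are group means and the grey band is the range of array backgrounds; both HXT13 probe sets lie below the band in all liquid cultures, and HXT8 and HXT11 are highest in KV2668 colonies.

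Counted over the family, colonies of KV473 had 4 probe sets called higher, both of HXT13 among them, and 1 lower than liquid cultures of KV473. A call required a Benjamini-Hochberg adjusted p under 0.05 and a log2 difference beyond 1. Of all 5424 probe sets tested, 11.2% were called higher and 6.67% lower (17.9% in either direction). Colonies of KV2668 had 6 of 10 probe sets called higher and 0 lower, beside 10.7% higher and 6.95% lower of all (17.7% in either direction). In each strain 9 of the 10 had an adjusted p under 0.05. The median difference over the 10 probe sets was 0.57 in KV473 and 1.02 in KV2668, beside medians of -0.16 and -0.10 over all probe sets. In the interaction test, 2 probe sets of the family, both of HXT13, were called higher and 3 lower, beside 2.93% and 4.22% of all (7.15% in either direction). HXT3, HXT5 and HXT10 passed the adjusted p there with differences of -0.78, -0.56 and 0.74, below the size of a call, and HXT1 and HXT11 did not pass it. HXT13 was called at 1.65 ± 0.16 and 1.23 ± 0.29 by its plain and _x_at probe sets, on liquid values below background. With dim values raised to the background these were 1.37 and 1.08 (limma, adjusted p = 3.9e-06 and 0.00619). The liquid difference of HXT13 was then only that between array backgrounds, 0.064 for both probe sets. These values therefore repeat the colony difference and cannot show whether the strain difference of HXT13 changed with the medium. The interaction of HXT10, whose KV473 liquid values were all below background, was 0.40 after the same step (limma, adjusted p = 0.0487). Without KV473 solid replicate 1 the value of HXT3 was -1.004 and was called, and without KV473 solid replicate 2 that of the _x_at probe set of HXT13 was 0.92 and was not.

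Between the strains on solid medium, HXT2, HXT4 and most of the little-used carriers differed. HXT2 was lower in KV473 colonies than in KV2668 colonies by 1.89 ± 0.21 on the log2 scale, or 3.70-fold (limma, adjusted p = 5.43e-06). HXT4 was lower by 1.70 ± 0.15, or 3.25-fold (limma, adjusted p = 4e-07). For both genes every KV473 colony lay below every KV2668 colony. HXT8 was lower in KV473 by 1.45 ± 0.11 (limma, adjusted p = 8.38e-08). HXT11 had 6.16, 6.51 and 6.30 in KV473 colonies, against 7.68, 7.84 and 7.62 in KV2668 colonies, and was lower by 1.39 ± 0.11 (limma, adjusted p = 2.17e-07). HXT13 ran the other way and was higher in KV473 by 1.43 ± 0.11 by the plain probe set and by 1.15 ± 0.21 by the _x_at probe set (limma, adjusted p = 1.76e-07 and 0.000311). Without KV473 solid replicate 2 the second value was 0.83 and was not called. HXT13 in KV2668 colonies was above background on all 3 arrays but near it, at 4.59 to 4.71 by the plain and 4.39 to 4.97 by the _x_at probe set.

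The other carriers differed less between these strains. HXT1 differed by -0.37 ± 0.13, HXT3 by -0.55 ± 0.17 and HXT5 by -0.39 ± 0.08, with limma adjusted p of 0.0286, 0.0112 and 0.000904, all under the size of a call. HXT10 differed by 0.31 ± 0.18 (limma, adjusted p = 0.154). Of the 10 probe sets, 2, both of HXT13, were called higher and 4 lower in KV473 colonies. Of all probe sets tested, 1.79% were called higher and 4.35% lower (6.14% in either direction). The median over the family was -0.47, against 0.01 over all probe sets.

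In liquid medium the same strains differed in 1 carrier. HXT11 had 6.17, 5.73 and 5.86 in KV473 cultures, against 6.89, 6.87 and 7.02 in KV2668 cultures, with no overlap. It was lower by 1.01 ± 0.11 (limma, adjusted p = 3.65e-06), at the edge of the size threshold. Without KV473 liquid replicate 2 or 3 or KV2668 liquid replicate 3 it stayed lower by 0.91 to 0.97 but was not called. HXT2, so different between the colonies, differed here by 0.12 ± 0.21 (limma, adjusted p = 0.659). HXT4 differed by 0.38 ± 0.15 (limma, adjusted p = 0.0422), in the opposite direction to that in colonies. HXT8 differed by -0.35 ± 0.11 (limma, adjusted p = 0.0123). Of the 10 probe sets 0 were called higher and 1 lower, beside 3.78% and 4.5% of all (8.28% in either direction), and 5 had an unadjusted p under 0.05. HXT13 was below background in both strains, so no fold is given.

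**Figure D3:**
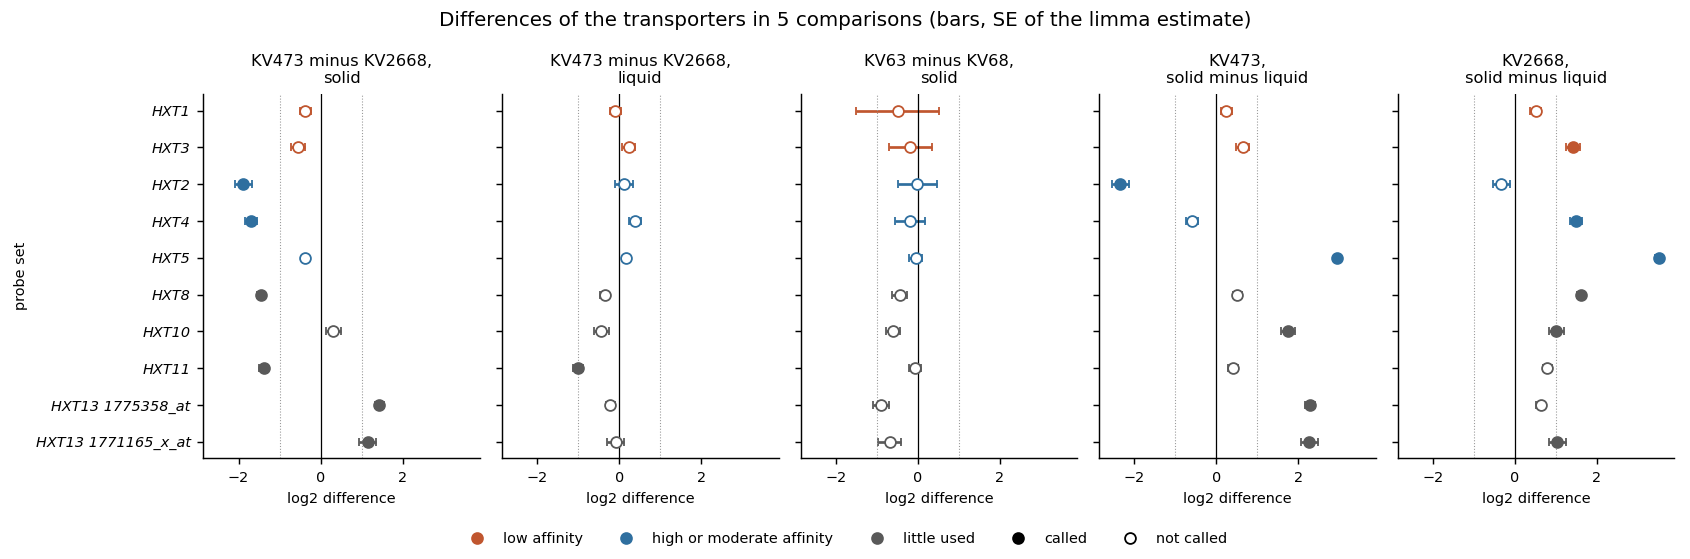
Log2 difference (x axis) of each HXT probe set (y axis) in 5 comparisons, with bars for the SE of the limma estimate. Colours mark the affinity classes, filled points are called and dotted lines mark differences of -1 and 1; HXT2 and HXT4 are lower in KV473 than in KV2668 on solid medium, and the KV63 minus KV68 panel holds no filled point.

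The second strain pair, KV63 and KV68, was grown on solid medium only and differed in FLO11 RNA by 8.21 ± 0.15 but, outside replicate 3 of KV68, not in the sign of the mating-type markers. Of the 10 HXT probe sets, 0 were called by limma, beside 0.442% of all (24 of 5424), and 4 had an unadjusted p under 0.05. HXT13 had 5.80, 5.42 and 5.12 in KV63 by the plain probe set, against 6.51, 5.86 and 6.65 in KV68, and differed by -0.89 ± 0.19 (limma, adjusted p = 0.0123). HXT10 had 5.77, 5.72 and 5.82 in KV63, against 6.35, 6.49 and 6.28 in KV68, with no overlap, and differed by -0.61 ± 0.17 (limma, adjusted p = 0.0384). Both were under the size of a call, which HXT13 by the plain probe set passed without KV63 solid replicate 1 (-1.07) and without KV68 solid replicate 2 (-1.13). HXT8 had 5.58, 5.27 and 5.64 in KV63, against 6.33, 6.13 and 5.36 in KV68, and HXT11 had 6.49, 6.34 and 6.26 against 6.75, 6.27 and 6.24, with overlap in both.

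Replicate 3 of KV68 set the values of the main carriers in this pair. For HXT1 the KV63 colonies had 6.02, 6.37 and 7.45, against 5.01, 5.42 and 10.88 in KV68 colonies. For HXT2 the KV63 colonies had 10.41, 10.70 and 10.77, against 10.19, 9.51 and 12.22. For HXT3 they had 9.34, 9.79 and 10.48, against 8.98, 9.28 and 11.88. For HXT4 they had 8.28, 8.51 and 8.96, against 8.38, 7.94 and 9.99. In each of these genes replicate 3 was the highest KV68 array by far. HXT1 on that KV68 array was 5.66 above the mean of the other replicates, or 50.5-fold, the largest upward departure among the 5424 probe sets. HXT3, HXT2 and HXT4 departed by 2.76, 2.37 and 1.83, and HXT5 by 0.76, whereas HXT8 was lower by -0.87. On that array 5.94% of all probe sets were over 1 higher and 4.79% over 1 lower than the mean of the other replicates.

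Replicate 3 of KV63 departed upwards in HXT1, HXT3 and HXT4 by smaller amounts. HXT1 was 1.26 above its other replicates, the second largest upward departure on that array, HXT3 0.92 and HXT4 0.57. HXT2 departed by 0.21 and HXT5 by 0.0067, and 0.0737% of all probe sets were over 1 higher there. The labels say nothing of what sets these arrays apart.

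**Figure D4:**
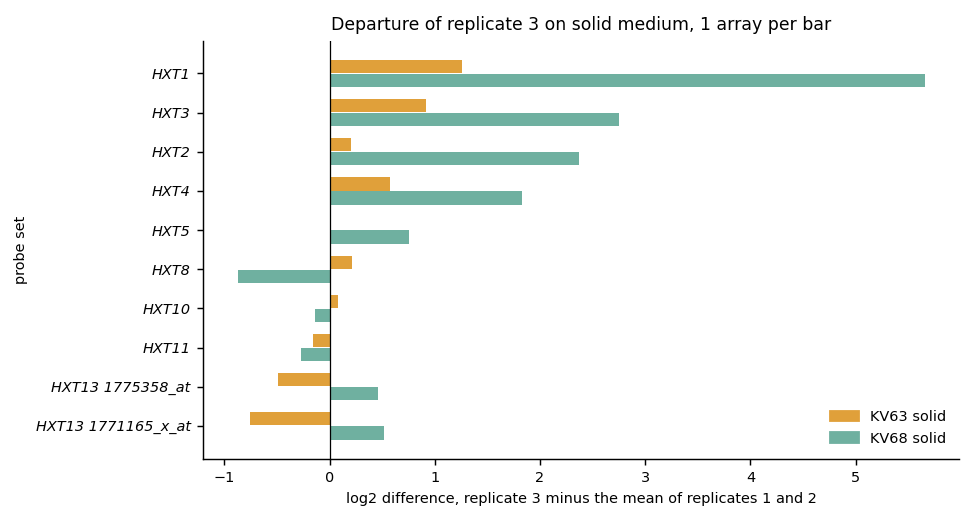
Log2 value of replicate 3 minus the mean of replicates 1 and 2 (x axis) for each HXT probe set (y axis) in KV63 and KV68 colonies, 1 array per bar. HXT1 departs by 5.66 in KV68 and 1.26 in KV63, and HXT3 by 2.76 and 0.92.

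Without KV68 solid replicate 3 the pair looked different. HXT1 was then higher in KV63 than in KV68 by 1.40 (limma, adjusted p = 0.0039) and was called, where the value with all arrays was -0.49 ± 1.01 (adjusted p = 0.788). HXT2 and HXT3 differed by 0.78 and 0.74 (adjusted p = 0.0394 and 0.0509), against -0.01 and -0.18 with all arrays, and HXT8 by -0.74 (adjusted p = 0.00166). HXT4 and HXT5 turned to 0.43 and 0.20 (limma, adjusted p = 0.141 and 0.093), from -0.18 and -0.05 with all arrays. All probe sets called then numbered 37. With replicate 3 of both strains left out, an alternative chosen after seeing the data, HXT1 differed by 0.98 and no member was called.

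The strain pairs were then compared with each other. The difference of KV473 minus KV2668, less that of KV63 minus KV68, was positive for HXT13, at 2.33 ± 0.27 and 1.83 ± 0.40 for its probe sets (limma, adjusted p = 2.73e-05 and 0.00379). Its KV2668 values lay near the background. For HXT11 the pairs differed by -1.33 ± 0.20 (limma, adjusted p = 0.000217). HXT4 and HXT8 were called too, at -1.51 ± 0.52 and -1.01 ± 0.27 (limma, adjusted p = 0.044 and 0.0144), but on only the 12 colony arrays neither passed (adjusted p = 0.105 and 0.0527). HXT4 lost its call when any single array other than KV63 solid replicate 1 or KV68 solid replicate 3 was left out (adjusted p from 0.0506 to 0.103). HXT8 lost its call with arrays centred on their median (-0.99) and without KV63 solid replicate 1 or 3, KV473 solid replicate 1, KV2668 solid replicate 3 or KV68 solid replicate 3 (-0.72 to -0.99). HXT2 differed by -1.87 ± 0.67 (limma, adjusted p = 0.0518), on the edge of a call. It was called with the replicate number as a block (-1.87, adjusted p = 0.0422), with arrays centred on their median (-1.85, adjusted p = 0.0497) and without KV2668 solid replicate 1 (adjusted p = 0.0481). Without KV68 solid replicate 3, HXT2, HXT3 and HXT1 were called at -2.66, -1.29 and -1.77, HXT4 was called at -2.12 (adjusted p = 1.21e-05), HXT8 at -0.72 was not, and the members called lower numbered 5. With all arrays 2 probe sets, both of HXT13, were called higher and 3 lower, beside 1.03% and 3.58% of all (4.61% in either direction).

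KV68 was also set against KV2668, both labelled wild type and both low in FLO11 RNA. This comparison uses the same KV2668 colonies as that of KV473 with KV2668, so their values are not independent. HXT11 was lower in KV68 by 1.29 ± 0.14 and HXT8 by 1.20 ± 0.19, and HXT13 was higher by 1.67 ± 0.19 and 1.40 ± 0.28 (limma, adjusted p = 4.42e-06, 0.000166, 7.94e-06 and 0.00103). The KV2668 values of HXT13 lay near the background. HXT2 and HXT4 were lower by 1.28 ± 0.47 and 1.12 ± 0.37 (limma, adjusted p = 0.0406 and 0.0231). On only these 6 arrays HXT2 and HXT4 were not called (adjusted p = 0.252 and 0.187), nor was HXT8 at -0.91 without KV68 solid replicate 3. Without that array HXT2 was lower by 2.07 and HXT4 by 1.73 (limma, adjusted p = 3.67e-06 and 2.13e-06). HXT1 and HXT3, at 1.35 ± 1.01 and 0.17 ± 0.53 with all arrays and not called, turned to -0.54 and -0.75 without KV68 solid replicate 3. HXT4 lost its call without KV68 solid replicate 1 or 2 or KV2668 solid replicate 2 or 3, and HXT2 without any of these or of 5 further arrays (adjusted p from 0.0501 to 0.196). Of the family 2 probe sets, both of HXT13, were called higher and 4 lower, beside 1.51% and 3.71% of all (5.22% in either direction). Between KV63 and KV473, both labelled flo11, 0 members and 0% of all probe sets were called by limma, with an unadjusted p under 0.05 for 80 probe sets, HXT13 by the plain probe set among them (-0.65 ± 0.19).

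By affinity class, the members were centred on their 18-array means and averaged on each array. The high- or moderate-affinity class, HXT2, HXT4 and HXT5, averaged -0.28 ± 0.15 in KV473 colonies and 1.04 ± 0.22 in KV2668 colonies (SD, n = 3 each). In liquid it averaged -0.29 ± 0.17 in KV473 and -0.51 ± 0.11 in KV2668. The low-affinity class, HXT1 and HXT3, averaged -0.27 ± 0.35 in KV473 colonies and 0.19 ± 0.15 in KV2668 colonies, and -0.71 ± 0.16 and -0.77 ± 0.12 in their liquid cultures. The little-used class averaged 0.26 ± 0.19 in KV473 colonies and 0.57 ± 0.07 in KV2668 colonies, and -0.97 ± 0.16 and -0.48 ± 0.09 in liquid.

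KV2668 colonies were higher than KV473 colonies in the high- or moderate-affinity class with no overlap. In the low-affinity class KV2668 colonies lay above KV2668 liquid cultures with no overlap, whereas KV473 colonies overlapped KV473 liquid cultures. The average of the high- or moderate-affinity class joins members that ran opposite ways, since HXT5 was higher and HXT2 lower in KV473 colonies than in liquid. In KV63 and KV68 colonies the low-affinity class averaged 0.61 ± 0.66 and 0.95 ± 2.44, with 3.75 on replicate 3 of KV68. Whether the classes differed from each other was not tested.

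**Figure D5:**
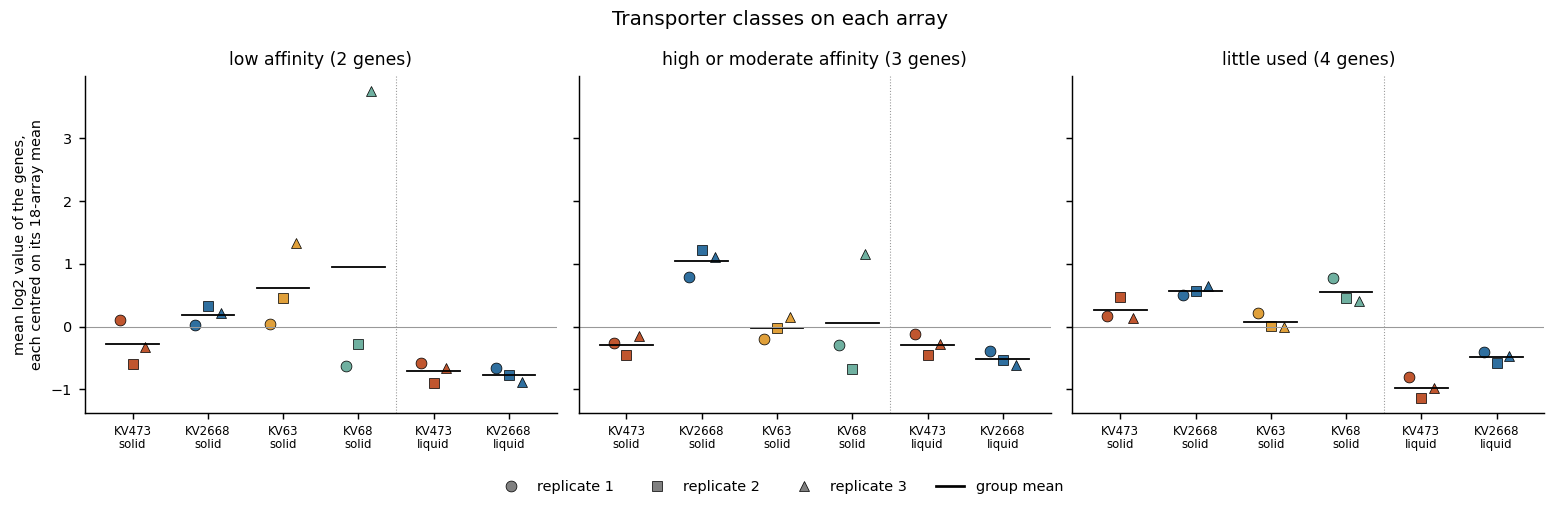
Mean log2 value of the genes of each class after each gene was centred on its mean over the 18 arrays (y axis), per array of the 6 groups (x axis). Points are arrays, shaped by replicate number, and black lines are group means; KV2668 colonies lie highest in the high- or moderate-affinity class apart from replicate 3 of KV68, and that array stands at 3.75 in the low-affinity class.

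The remaining sugar transporters on the array were led by MAL11 and MAL31. Of 11 probe sets for 10 genes, 4 were called higher and 1 lower in KV473 colonies than in liquid, beside 11.2% and 6.67% of all probe sets. In KV2668 colonies 3 were called higher and 0 lower, beside 10.7% and 6.95% of all. MAL11, a proton symporter that takes up maltose and sucrose, rose by 3.54 ± 0.07 in KV473 colonies and by 2.85 ± 0.07 in KV2668 colonies (limma, adjusted p = 2.97e-14 and 1.87e-13). MAL31, the maltose permease, rose by 2.70 ± 0.09 in KV473 and 2.13 ± 0.09 in KV2668 (limma, adjusted p = 4.32e-12 and 6.49e-11). HXT15, whose probe set may also read HXT16, was called higher in colonies of both strains, on liquid values below background. HXT7, a family member outside those followed here and in none of the classes above, averaged 13.26 in KV473 colonies, against 12.41 in liquid. In KV2668 it averaged 13.64 in colonies, against 12.65 in liquid. The HXT7 probe set is of the _s_at type and may read other genes as well. Between KV473 and KV2668 colonies HXT7 differed by -0.38 ± 0.07 (limma, adjusted p = 0.000243), under the size of a call. STL1, a glycerol symporter, fell by 1.07 in KV473 colonies. Between the strains on solid medium only HXT15 (1.03) and STL1 (1.04) were called, both higher in KV473, beside 1.79% called higher of all, and in liquid only STL1 (1.83), beside 3.78%.

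HXT9, the near copy of HXT11, bears on how the HXT11 values are read. Its probe set differed by -0.41 ± 0.09 between KV473 and KV2668 colonies and by -0.65 ± 0.09 between their liquid cultures, in the direction of HXT11 and under the size of a call. HXT17, a close relative of HXT13, differed by 0.16 ± 0.13 between KV473 and KV2668 colonies (limma, adjusted p = 0.328). The HXT9 and HXT17 probe sets are of the _s_at type and may read other genes as well. Their values may therefore not be independent of HXT11 and HXT13. How far the HXT11 and HXT13 probe sets read such copies was not tested, and the HXT11 and HXT13 values are uncertain to that degree.

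Among regulators of the main HXT genes, 6 were called lower in KV473 colonies than in KV2668 colonies. Of 10 genes of glucose sensing and Rgt1 control, 0 were called higher and 2 lower, beside 1.79% and 4.35% of all probe sets. These were STD1 at -1.08 ± 0.12 and MTH1 at -1.05 ± 0.10, the corepressors named above (limma, adjusted p = 5.87e-06 and 1.29e-06). The sensors SNF3 and RGT2 differed by -0.18 and 0.24. Of 10 genes of glucose repression 4 were called lower and 0 higher, beside the same shares of all. These were the repressor genes MIG1 at -1.13 ± 0.09, MIG2 at -1.37 ± 0.21 and MIG3 at -1.31 ± 0.11, and HXK2, the hexokinase of glucose-grown cells, at -1.29 ± 0.11 (limma, adjusted p = 1.97e-07, 7.64e-05, 3.99e-07 and 3.03e-07).

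In liquid, 0 of the 10 sensing genes and 1 of the 10 repression genes were called between the strains, beside 8.28% of all probe sets in either direction. MIG2 was higher in KV473 by 1.81 ± 0.21 (limma, adjusted p = 4.62e-06), the reverse of its difference in colonies, and its interaction was -3.17 ± 0.29. MIG3 was lower in KV473 liquid cultures by 0.84 (adjusted p = 2.1e-05), under the size of a call. The interaction was also called for HXK2 at -1.20, MIG1 at -1.02 and STD1 at -1.01 (limma, adjusted p = 2.88e-05, 2.85e-05 and 0.000317). For MTH1 at -0.93 and MIG3 at -0.46 it was not. Of 5 genes of sugar use, SUC2 and IMA1, an isomaltase gene, were lower in KV473 liquid cultures, SUC2 by 1.08 and IMA1 by 2.11, beside 4.5% called lower of all. Between media, MTH1 rose by 1.32 in KV473 colonies and 2.26 in KV2668 colonies and was the only sensing gene called. HXK2 fell by 2.27 in KV473 and 1.07 in KV2668, the only repression gene called lower, beside 6.67% and 6.95% of all. MIG2 rose by 2.59 ± 0.21 in KV2668 colonies (limma, adjusted p = 5.27e-08), the only repression gene called higher, beside 10.7% of all. In KV473 it differed by -0.58 (limma, adjusted p = 0.0183) and was not called. Of the 5 sugar-use genes 3 were called higher in KV473 colonies and 1 in KV2668 colonies, beside 11.2% and 10.7% of all, with MAL32, a maltase gene, up by 3.03 in KV473 and 2.11 in KV2668. The median differences of the sensing and repression lists were between -0.25 and 0.36 in both media comparisons.

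Across the 6 group means the members fell into patterns that can be described but not tested, since the groups share strains and media. Each correlation is followed by its value when the KV68 solid mean leaves out replicate 3, an alternative chosen after seeing the data. HXT2 ran opposite to HXT13, at a Pearson r of -0.94 for both probe sets, and at -0.99 for the plain and -0.97 for the _x_at probe set without that array. HXT10 ran with HXT13 at 0.94 for the plain and 0.97 for the _x_at probe set, and at 0.94 and 0.96 without it. Both HXT13 probe sets were below background in all liquid cultures, and HXT10 in those of KV473. The correlations of HXT13 and HXT10 therefore rest in part on levels that were not measured. HXT3 ran with HXT5 at 0.92 (0.90 without it) and HXT8 with HXT11 at 0.88 (0.85). HXT4 correlated with HXT8 at 0.84 (0.66). The genes most like HXT5 were PAI3, YGR174W-A and ATG1, at 0.997 to 0.999 (0.974 to 0.999). Those most like HXT2 were NOC4, PUF6 and ENP2, at 0.984 to 0.991 (0.982 to 0.991). MTL1, SLD7 and YDR003W-A were most like HXT8, at 0.988 to 0.998 (0.932 to 0.973). Of the genes most like HXT4, MCH5 and UBP3 stood at 0.984 and 0.971 (0.968 and 0.959), whereas ALF1 stood at 0.975 with that array and 0.07 without it. HXT1, HXT4 and HXT5 lie close together on chromosome VIII, HXT1 next to HXT5 and the gene AHT1 between HXT1 and HXT4. HXT1 correlated with HXT4 at 0.10 (0.25) and with HXT5 at 0.58 (0.50). HXT8, HXT11 and HXT13 lie 9, 13 and 9 genes from a chromosome end. In RNA from whole colonies, fewer cells that express a gene and less RNA per cell cannot be told apart.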

How the data were processed

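Total RNA from 18 colony or liquid samples was hybridised to 1-colour Affymetrix Yeast Genome 2.0 arrays. The deposited values are log2 intensities that the authors summarised by RMA (version not given in the sources used here), and they were used as deposited. A table of the array's probe sets gave 1 symbol to 6145 of 7686 probe sets, several to 1 and none to 1540, and 12 symbols were updated through the RefSeq gene table. Of 5469 S. cerevisiae probe sets, 5424 lay above the background, taken as the 95th percentile over the 676 probe sets for S. pombe on an array, on at least 3 arrays and were tested. Each member's probe sets passed; HXT10 exceeded that background on 14 arrays, each HXT13 probe set on 12 and the others on 18.

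Groups were fitted in limma 3.58.1 (R 4.3.3) with lmFit and eBayes and Benjamini-Hochberg adjustment over all 5424. Comparisons of KV473 with KV2668 and of media used the 12 arrays of these strains (8 residual degrees of freedom), and the others all 18 (12 degrees of freedom). Calls required an adjusted p under 0.05 and a log2 difference beyond 1. The number of arrays limits the precision. The script was tested on simulated data. Same-numbered KV63 and KV68 colonies deviated together (r = 0.40, 0.27 and 0.52), and those of KV63 and KV473 less evenly (r = -0.22, 0.37 and 0.38). Correlations between arrays of different numbers were not computed, so whether the numbers pair the arrays was not tested. The replicate block changed no call of a transporter in KV63 minus KV68. Named genes were the members, FLO11, up to 4 called genes per pathway list and comparison with the largest difference, others given for context, and the 3 probe sets most correlated with a member. The members, lists and tests were chosen with earlier results of these data known.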

Additional observations from a re-analysis of the deposited data

Results flagged for a closer look

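The transporters below are set out because the strain difference itself differed, between media or between strain pairs, by a limma test of that difference over all 5424 probe sets. For KV473 minus KV2668, solid minus liquid, the interaction was -2.08 for HXT4, -2.01 for HXT2, -1.10 for HXT8, -0.78 for HXT3 and -0.56 for HXT5. It was positive for HXT10, at 0.74, and for HXT13, at 1.65 by the plain _at and 1.23 by the _x_at probe set, both of which were below background in all liquid cultures. With dim values raised to the background it was 0.40 for HXT10 and 1.37 and 1.08 for HXT13. For HXT13 these values repeat the difference between colonies, since its liquid difference was not measured. They cannot show whether its strain difference changed with the medium.

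For the pair KV473 and KV2668 minus the pair KV63 and KV68, on solid medium, the difference was 2.33 and 1.83 for the plain _at and the _x_at probe set of HXT13, 0.91 for HXT10, -1.33 for HXT11, -1.51 for HXT4 and -1.01 for HXT8. The KV2668 colony values of HXT13 lay near the background. On only the colony arrays HXT4 and HXT8 did not pass (limma, adjusted p = 0.105 and 0.0527), and HXT4 lost its call when any single array other than KV63 solid replicate 1 or KV68 solid replicate 3 was left out. Mating-type markers moved with the first pair and, outside KV68 solid replicate 3, not with the second, and their part was not tested.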

How the results depend on the processing

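Most differences kept their direction and their side of the threshold. Over the 10 probe sets and 9 comparisons, 86 of 90 did so after dim values were raised to the background, 87 with arrays centred on their median, 86 with only the arrays compared and 89 with the replicate block. Without the filter on dim probe sets all 90 did, as did all 50 differences of the 12-array comparisons when fitted on the 18 arrays. The cause of the changes below was not tested. With dim values raised to the background, both HXT13 probe sets turned to 0.064 in KV473 minus KV2668 in liquid, where neither was above background. With median-centred arrays HXT2 turned to 0.0069 in KV63 minus KV68, and in the comparison of strain pairs HXT8 lost its call (-0.99) and HXT2 gained one (-1.85). With only the arrays compared, the probe sets called lower were 1 in the comparison of strain pairs and 2 in KV68 minus KV2668, and all probe sets called in KV63 minus KV68 were 2. The replicate block left every count of transporters but 1 as it was and called 23 of all probe sets in KV63 minus KV68. The exception was HXT2 in the comparison of strain pairs (-1.87, adjusted p = 0.0422), which brought the count called lower to 4. With the block on only the arrays compared, an alternative chosen after seeing the data, 1 transporter was called lower in KV68 minus KV2668, all probe sets called were 154 there and 1 in KV63 minus KV68.

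Without replicate 3 of KV63 and KV68, likewise chosen after seeing the data, KV63 minus KV68 turned to 0.98 for HXT1, 0.71 for HXT2, 0.43 for HXT3, 0.23 for HXT4 and 0.20 for HXT5. KV68 minus KV2668 turned to -0.54 for HXT1 and -0.75 for HXT3, and the comparison of strain pairs to -1.35 for HXT1.

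With each array left out in turn, the transporters called higher in KV473 than in KV2668 on solid medium ranged from 1 to 2 and those called lower in liquid from 0 to 1. In KV63 minus KV68 those called higher and those called lower each ranged from 0 to 1. In the interaction those called higher ranged from 1 to 2 and those called lower from 2 to 4. In the comparison of strain pairs those called lower ranged from 1 to 5, and in KV68 minus KV2668 from 2 to 4. KV63 minus KV68 ranged from -1.54 to 1.40 for HXT1, -0.58 to 0.78 for HXT2, -0.71 to 0.74 for HXT3, -0.60 to 0.43 for HXT4, -0.19 to 0.20 for HXT5 and -0.15 to 0.11 for HXT11. The comparison of strain pairs ranged from -1.77 to 1.17 for HXT1 and -1.29 to 0.16 for HXT3. KV68 minus KV2668 ranged from -0.54 to 2.40 for HXT1 and -0.75 to 0.70 for HXT3. KV63 minus KV473 ranged from -0.15 to 0.039 for HXT10 and -0.049 to 0.13 for HXT11. All probe sets called ranged from 14 to 64 in KV63 minus KV68 and from 220 to 380 in the comparison of strain pairs. HXT13 in the liquid cultures of both strains, and HXT10 in those of KV473, were not above background, so their changes are lower limits only.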
